A study of Mus with 9 samples.

Results

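Protocadherins are the largest subgroup of the cadherins, transmembrane adhesion proteins whose extracellular repeats bind calcium. Among the 22206 probe sets of the Clariom S Mouse array, 35 carry a gene symbol that begins with Pcdh, and these were taken as the protocadherin genes. They name 70 of the 22662 gene symbols on the array, all of which were found in the RefSeq table of mouse genome build GRCm38 (mm10). Of the 35 probe sets, 23 stand for the 58 clustered genes (Pcdha, Pcdhb and Pcdhg) and 12 for the 12 non-clustered genes, which lie singly in the genome.

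In neurons, the clustered genes are known to be switched on in different combinations from cell to cell, each variable exon having a promoter of its own. The proteins form pairs on the cell surface and bind the same combination on a neighbouring cell, which lets a neuron tell its own branches from those of other neurons. Non-clustered protocadherins are expressed in cell-type and region-specific patterns, and several act at synapses, in axon growth or in the regulation of other cadherins.

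Hippocampal RNA was measured in 3 groups of male mice, with 3 arrays per group. The mice were 16 weeks old at the start, and acclimatization, dosing and maze testing came before the tissue was taken. SAMR1 (senescence-accelerated mouse resistant-1, the normal aging control) and SAMP8 (senescence-accelerated mouse prone 8, an inbred strain with early learning and memory loss) received vehicle by mouth, which is saline in the sample records and water in the methods. The TG-treated SAMP8 mice were given trigonelline (TG), a plant alkaloid, at 5 mg/kg per day by mouth for 30 days, continued over 8 days of Morris water maze testing. The SAMP8 mice were divided at random into the vehicle and TG groups, while SAMR1 and SAMP8 are different strains, so that strain background and early ageing cannot be told apart. A free-text description in the sample records names a macrophage cell line and was left aside, and the series' design text speaks of duplicate RNA samples where the records list 3.

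The values are the authors' group averages of the normalized log2 signal, 1 for each group and probe set. The averages of all probe sets lay between 2.39 and 19.93, and their median was 6.09 in the SAMR1 group, 6.04 in SAMP8 and 6.07 with TG (the TG-treated SAMP8 group). The tables hold no value per array and the authors' own p-values were not used, so no difference was tested here, and the averages alone do not show whether a difference exceeds the variation between animals. Differences are given on the log2 scale, and those of 0.585 or more in size, a linear 1.5-fold, are counted as past the limit. The SAMP8 averages enter both the strain comparison (SAMP8 minus SAMR1) and the TG comparison (TG-treated SAMP8 minus SAMP8) with opposite sign. In whole hippocampus, fewer cells of a type and less RNA per cell cannot be told apart. All 7 neuron markers and all 6 markers of hippocampal subfields were on the array, with list means of 14.59 and 9.19 in SAMR1, 14.60 and 9.35 in SAMP8, and 14.50 and 9.22 with TG. The tables hold no detection call, so the presence of a transcript was not scored.

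In the strain comparison, 4 protocadherin probe sets were higher in SAMP8 past the limit, against 5.00% of all probe sets, and 1 was lower, against 6.08%. Those higher were Pcdh9, Pcdha, Pcdh15 and Pcdhb15, and the lower was Pcdhb2. The median difference of the 35 was 0.09, beside 0.00 for all probe sets, and 21 of them were higher in SAMP8. In the TG comparison, 5 were lower with TG past the limit, against 3.74% of all probe sets, and 0 were higher, against 4.48%. Those lower were Pcdhb14, Pcdh15, Pcdhb15, Pcdha and Pcdhb17. With TG, 24 of the 35 were lower, 10 were higher and 1 was equal, at a median of -0.19 beside 0.01 for all probe sets. At a limit of 1.2-fold, 10 were higher in SAMP8 (20.4% of all probe sets) and 4 lower (20.4%), and with TG 1 was higher (19.6%) and 15 were lower (18.5%). At 2-fold, 1 was higher in SAMP8 (0.838%), 1 lower (1.47%), and with TG 0 were higher (0.473%) and 0 lower (0.342%). The 1 higher, Pcdh9, lay on the 2-fold limit, so its count rests on the rounding of the averages (0.01). The averages of every member are shown in the plot of levels by group.

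**Figure D1:**
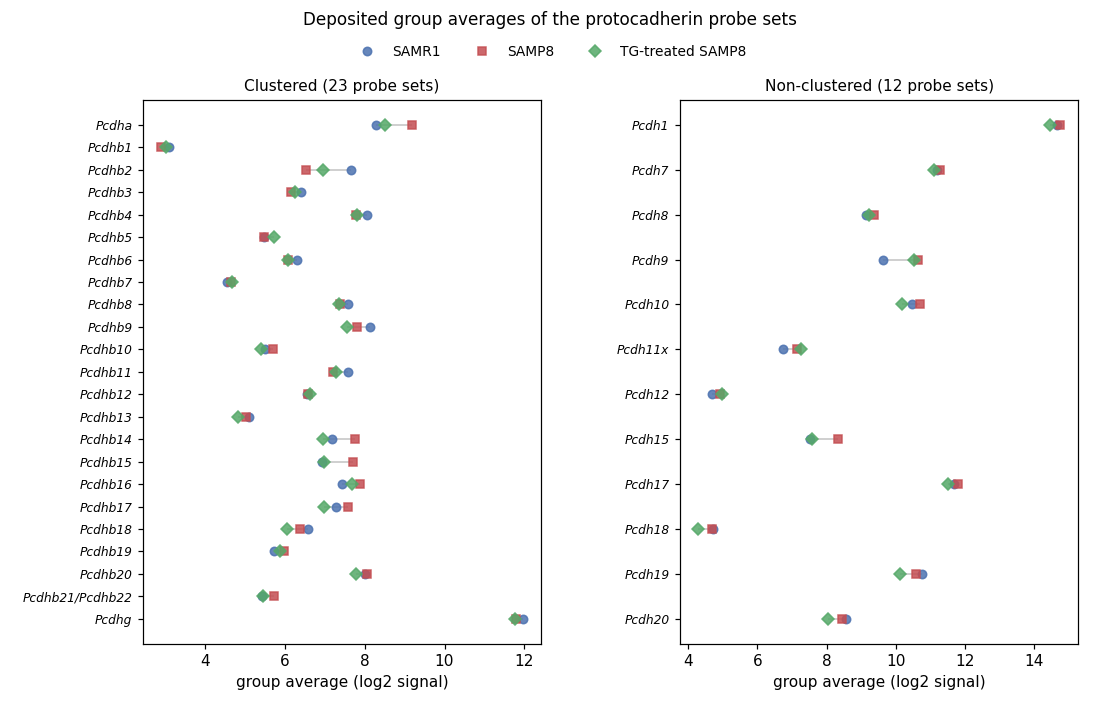
Group averages of the 35 protocadherin probe sets (log2 signal, x axis) in SAMR1 (circles), SAMP8 (squares) and TG-treated SAMP8 (diamonds), clustered genes on the left and non-clustered genes on the right. Each symbol is 1 deposited average without a spread, and levels are to be compared within a row, as for Pcdha at 8.29, 9.19 and 8.52.

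The clustered and the non-clustered genes were then set side by side. Clustered probe sets had a median difference of 0.02 between the strains and -0.11 with TG. Of the 23, 12 were higher in SAMP8 than in SAMR1, and 14 were lower with TG than without. Non-clustered probe sets had medians of 0.17 between the strains and -0.30 with TG, with 9 of 12 higher in SAMP8 and 10 of 12 lower with TG. Past the limit between the strains were 2 of 23 clustered probe sets higher and 1 lower, and 2 of 12 non-clustered ones higher and 0 lower, beside 5.00% higher and 6.08% lower of all probe sets. With TG, 4 of 23 clustered and 1 of 12 non-clustered probe sets were lower past it, beside 3.74% of all. With 23 against 12 members, the differences spread over a wider range in the clustered class in the strain comparison (-1.14 to 0.90, against -0.17 to 1) and in the TG comparison (-0.80 to 0.44, against -0.75 to 0.12). No test between the classes was made, since genes are not replicates of a group.

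Signal and gene length differ between the classes, and both move with the differences over the whole array. In the highest quartile of mean signal, which holds 7 of the 12 non-clustered and 1 of the 23 clustered probe sets, the median of all probe sets was 0.12 between the strains and -0.06 with TG. In the quartile with the longest genomic span, from 45.1 kb upwards, these medians were 0.07 and -0.09, and 7 non-clustered and 2 clustered probe sets lie there. The quartile with the shortest span, with 21 clustered and 1 non-clustered probe sets, had medians of -0.07 and 0.09. The part of signal and span in the class medians was not tested.

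**Figure D2:**
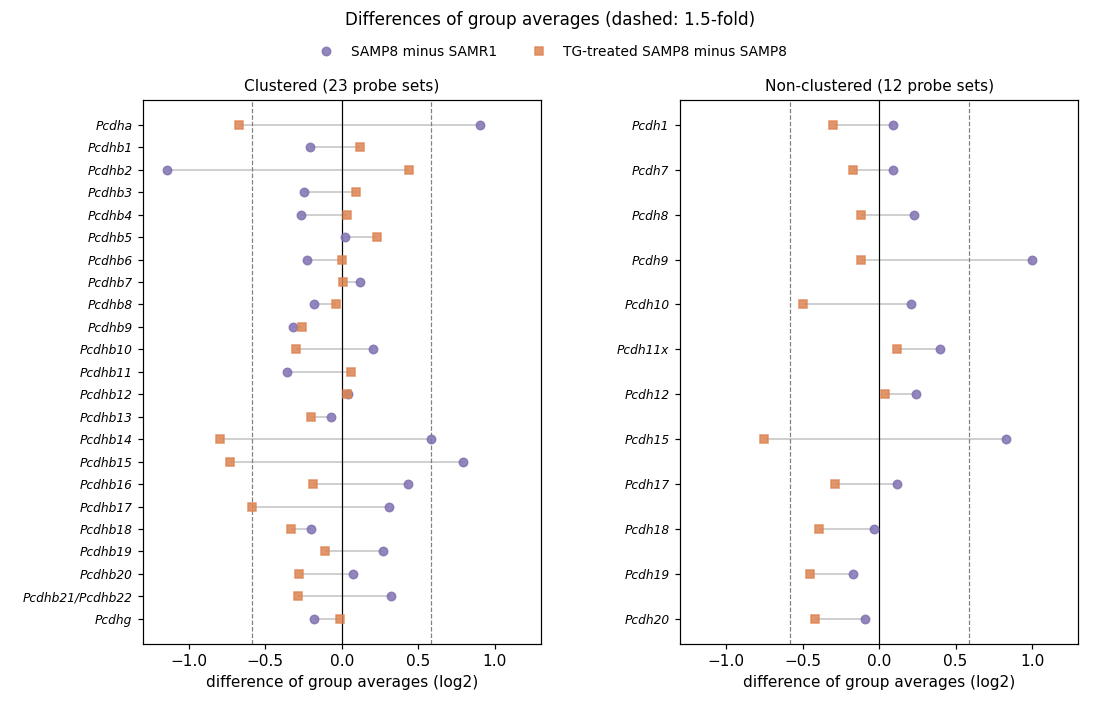
Differences of group averages (log2, x axis) for each protocadherin probe set, SAMP8 minus SAMR1 as circles and TG-treated SAMP8 minus SAMP8 as squares, with dashed lines at 1.5-fold and a grey line joining the pair. Both differences contain the same SAMP8 average with opposite sign, and Pcdhb14, Pcdhb15, Pcdhb17, Pcdha and Pcdh15 lie left of the lower line with TG.

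The clustered genes occupy 912 kb of chromosome 18, from 36930285 to 37841873, in the order alpha, beta, gamma. Genes of the alpha and gamma subfamilies each join a variable exon to constant exons shared by the whole subfamily, whereas a Pcdhb gene is a single exon that codes for a whole protein. On the array the alpha subfamily has 1 probe set for all 14 of its genes, among them the C-type isoforms Pcdhac1 and Pcdhac2, and that probe set also names Gm37013, a gene model that runs from the alpha into the gamma genes. The gamma subfamily likewise has 1 probe set for 22 genes, Pcdhgc3, Pcdhgc4 and Pcdhgc5 included. Isoforms within these subfamilies, the C-type isoforms among them, therefore have no value of their own here. The tables do not say which exons these probe sets read, so each value may stand for the shared constant exons or for some isoforms alone.

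The Pcdha probe set, whose genes lie on chromosome 18 from 36930285 to 37188897, averaged 8.29 in SAMR1, 9.19 in SAMP8 and 8.52 with TG. SAMP8 stood above both other groups, 1.87-fold over SAMR1, and the TG-treated group lay 1.59-fold below SAMP8. The alpha proteins are best known for guiding the spread of serotonergic axons. Pcdhg, from 37661775 to 37841873, averaged 11.96 in SAMR1, 11.78 in SAMP8 and 11.77 with TG. The probe set of the gamma protocadherins, which are known to keep interneurons alive and to shape dendrites, thus had nearly equal averages in the vehicle and TG-treated SAMP8 groups (difference -0.01). The log2 difference of Pcdha between the strains was higher than that of 98.8% of all probe sets, and that of Pcdhg was higher than 27.3%.

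The Pcdhb subfamily holds 22 genes over 256 kb, from 37264998 to 37521419, and 21 probe sets, since Pcdhb21 and Pcdhb22 share 1. In the strain comparison 11 were higher and 10 lower in SAMP8, at a median of 0.02. With TG, 8 were higher, 12 lower and 1 equal, at a median of -0.11.

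Pcdhb2, on chromosome 18 from 37294840 to 37297614, showed the widest strain difference of the subfamily, with 7.66 in SAMR1, 6.52 in SAMP8 and 6.96 with TG. Its SAMP8 average lay 2.20-fold below that of SAMR1, a log2 difference of -1.14, and 0.928% of all probe sets differed more deeply. Both SAMP8 groups were below SAMR1 at this gene, and with TG the difference from SAMP8 was 0.44, the highest of all protocadherins. The next lowest between the strains, Pcdhb11, averaged 7.57 in SAMR1, 7.21 in SAMP8 and 7.27 with TG. Pcdhb5, second to Pcdhb2 in its difference with TG, had 5.47, 5.49 and 5.72 in the same order. In these genes the SAMP8 average was not above that of SAMR1 by more than 0.02.

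Pcdhb15 (chromosome 18, 37473546 to 37476340) averaged 6.92 in SAMR1, 7.71 in SAMP8 and 6.98 with TG. SAMP8 was 1.73-fold above SAMR1 and the TG-treated group 1.66-fold below SAMP8, so that the SAMR1 and TG-treated averages lay 0.06 apart. Pcdhb14, its neighbour at 37447657 to 37451094, had 7.18 in SAMR1, 7.76 in SAMP8 and 6.96 with TG. With -0.80 it had the lowest TG difference of all protocadherins, while its strain difference of 0.58 fell just short of the limit and passed it, at 0.63, once each group was centred on its own median. Pcdhb17 (37485021 to 37488290) averaged 7.27, 7.58 and 6.99, and its TG difference of -0.59 lay just past the limit, at a distance within the rounding of the averages (0.01). Of the members short of the limit, Pcdh10 with -0.50 came next.

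Read in the order of the cluster, the Pcdhb probe sets took different values from one end to the other. They were split after their values were seen into 3 runs of 7 from Pcdhb1 onwards. Between the strains the median was -0.23 for Pcdhb1 to Pcdhb7, -0.07 for Pcdhb8 to Pcdhb14 and 0.31 for Pcdhb15 to Pcdhb22. In the last of these runs 6 of 7 were higher in SAMP8, with Pcdhb18 the exception (6.58 in SAMR1 and 6.38 in SAMP8), and in the first of them 2 of 7 were higher, namely Pcdhb5 and Pcdhb7. With TG the medians of the runs were 0.09, -0.20 and -0.29. There, 0 of 7 probe sets were lower in the first run, against 5 of 7 in the middle run and 7 of 7 in the last. Spearman's rho between order and difference over the 21 probe sets was 0.66 for the strains and -0.75 for TG, values that share the SAMP8 averages, the arrays and, for neighbouring genes, much of their sequence. Between TG-treated SAMP8 and SAMR1, a pair that leaves those averages out, rho was 0.12 and the medians of the runs were -0.16, -0.22 and 0.03.

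**Figure D3:**
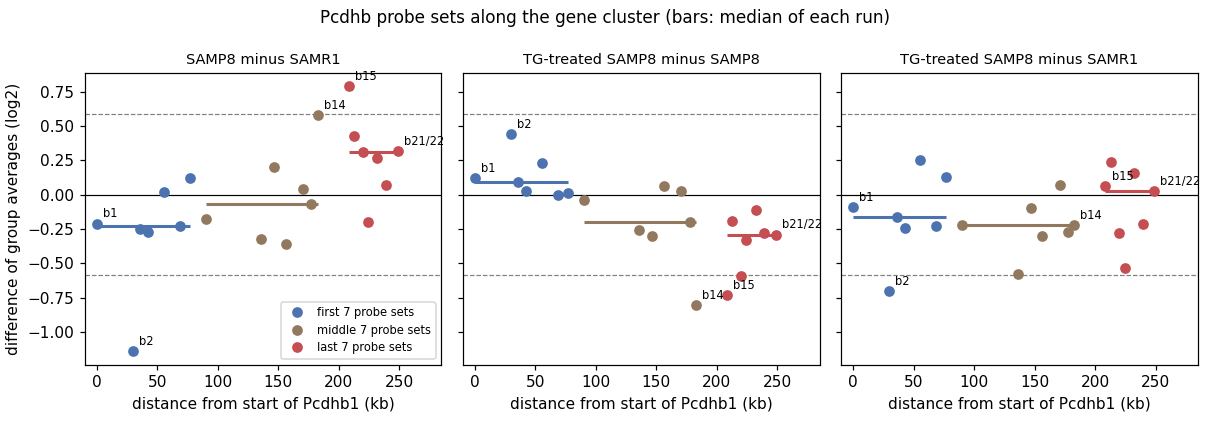
Differences of group averages (log2, y axis) of the 21 Pcdhb probe sets against the distance of their gene from the start of Pcdhb1 (kb, x axis), for SAMP8 minus SAMR1, TG-treated SAMP8 minus SAMP8 and TG-treated SAMP8 minus SAMR1. Colours mark the 3 runs of 7 probe sets, horizontal bars their medians and dashed lines 1.5-fold; in the middle panel all 7 points of the last run lie below 0.

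Closely related Pcdhb genes resemble one another in sequence, so a probe set may also pick up RNA of a relative, and single members are uncertain to that degree. Genes other than protocadherins in the cluster or within 500 kb of it had 26 probe sets. Pcdh1 and Pcdh12 also lie within that distance and are left out here as members. The medians of these 26 were 0.09 between the strains and 0.03 with TG, with 0 of 26 past the limit in the TG comparison and 1, Slc4a9, lower past it between the strains. Of all probe sets, 4.48% were higher and 3.74% lower past it with TG, and 5.00% and 6.08% between the strains. Within the cluster itself, Taf7, a subunit of a general transcription factor that lies between the beta and gamma genes, averaged 4.58 in SAMR1, 4.91 in SAMP8 and 4.62 with TG.

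The non-clustered genes were taken by their structural groups. Delta-1 protocadherins (Pcdh1, Pcdh7, Pcdh9 and Pcdh11x) each had a higher average in SAMP8 than in SAMR1, at a median of 0.25, and had a median of -0.15 with TG. Pcdh9, a large gene on chromosome 14 from 93013700 to 93892834 that is expressed in neurons and in myelinating cells, averaged 9.64 in SAMR1, 10.64 in SAMP8 and 10.52 with TG. Its strain difference, 1 on the log2 scale or 2-fold, was the highest of all protocadherins and above that of 99.2% of all probe sets. Both SAMP8 groups stood above SAMR1, the TG-treated one by 0.88 (the 1 member past the limit in that direction, against 5.62% of all probe sets), and the difference with TG was -0.12. Pcdh11x, on chromosome X from 120290238 to 120910622, had 6.74, 7.14 and 7.26, again with both SAMP8 groups above SAMR1. Pcdh7, on chromosome 5 from 57716145 to 58133236, whose tail binds a protein phosphatase, averaged 11.19 in SAMR1, 11.28 in SAMP8 and 11.11 with TG. Pcdh1, which lies on chromosome 18 outside the cluster (38185914 to 38212048), averaged 14.66, 14.75 and 14.45 in that order of groups. For these last genes the strain difference was 0.09 each, and the TG-treated group had the lowest average.

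The delta-2 protocadherins (Pcdh8, Pcdh10, Pcdh17, Pcdh18 and Pcdh19) were all lower with TG than without, with differences from -0.50 to -0.12. Their median of -0.39 is the value of Pcdh18, the dimmest of the 5. Of the delta-2 genes, 0 of 5 passed the limit, beside 3.74% of all probe sets lower past it. Their median between the strains was 0.12. Pcdh10, on chromosome 3 from 45378398 to 45434579, is known for its part in the activity-driven removal of excitatory synapses, and it averaged 10.48 in SAMR1, 10.69 in SAMP8 and 10.19 with TG. Pcdh19 (chromosome X, 133582860 to 133689044), the gene mutated in a form of epilepsy with intellectual disability, averaged 10.75 in SAMR1, 10.58 in SAMP8 and 10.13 with TG. It was lower in TG-treated SAMP8 than in SAMR1 by a difference of -0.62, 1 of 2 members past the limit in that direction (Pcdhb2 was the other, at -0.70), against 4.83% of all probe sets. Pcdh17 (chromosome 14, 84443563 to 84537565), which helps to organize presynaptic terminals, had 11.68, 11.80 and 11.51. Pcdh18 (chromosome 3, 49743291 to 49757383) had 4.71, 4.68 and 4.29 in the same order. In both the TG-treated group held the lowest average.

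Pcdh8 (chromosome 14, 79766772 to 79771312), also called arcadlin, is induced by synaptic activity and draws N-cadherin away from the synapse. Its averages were 9.13 in SAMR1, 9.36 in SAMP8 and 9.24 with TG, the narrowest TG difference of the delta-2 group. The 9 activity-induced genes that were looked at beside it (among them Fos, Arc and Npas4) had a median of 0.37 with TG and 0.16 between the strains, with 8 of 9 higher with TG. Pcdh8 thus lay on the other side of 0 from 8 of these genes in the TG comparison.

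Pcdh12, Pcdh15 and Pcdh20 belong to neither group. Pcdh15, on chromosome 10 from 73096277 to 74649831, codes for a part of the tip links of inner ear hair cells and in brain is expressed in oligodendrocyte precursors. It averaged 7.51 in SAMR1, 8.34 in SAMP8 and 7.59 with TG. SAMP8 was 1.78-fold above SAMR1 and the TG-treated group 1.68-fold below SAMP8, which left SAMR1 and TG-treated SAMP8 0.08 apart. The 5 markers of oligodendrocyte precursors had list means of 6.65 in SAMR1, 6.85 in SAMP8 and 7.06 with TG. Among them Pdgfra (6.75, 6.87 and 6.61) and Cspg4 (5.70, 6.25 and 6.11) were highest in SAMP8 like Pcdh15. Their TG differences were -0.26 and -0.14, against -0.75 for Pcdh15. Sox10 (5.71, 5.39 and 6.08), Olig1 (6.85, 7.04 and 7.36) and Olig2 (8.26, 8.69 and 9.14) were highest with TG. The part of these cells in the Pcdh15 values was not tested. Pcdh20, on chromosome 14 from 88464743 to 88471396, had 8.55, 8.46 and 8.04, lowest in the TG-treated group. Pcdh12, on chromosome 18 from 38267092 to 38284401 and known from endothelial cells, averaged 4.69 in SAMR1, 4.93 in SAMP8 and 4.97 with TG. Endothelial markers had list means of 7.29, 7.63 and 7.40, and 6 of 6 were higher in SAMP8 than in SAMR1.

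Averages of markers of other cell types differed between the groups too. Astrocyte markers had list means of 12.37 in SAMR1, 12.69 in SAMP8 and 12.59 with TG, and 6 of 6 were higher in SAMP8. Their strain differences ran from 0.04 for Slc1a2 to 0.95 for Gfap, at a median of 0.145. The median of all probe sets in the highest quartile of mean signal was 0.12, and the part of signal was not tested. Oligodendrocyte markers stood at 11.58, 11.41 and 11.68, microglia markers at 8.55, 8.84 and 8.74. For pericytes and smooth muscle the means were 6.37, 6.89 and 6.46, with the smooth muscle actin gene Acta2 at 5.52 in SAMR1, 7.71 in SAMP8 and 5.54 with TG. Meningeal fibroblast markers had 6.57, 6.49 and 6.32, and choroid plexus markers 5.86, 5.99 and 6.05. The members of some lists differed in direction. With TG, 3 of 6 choroid plexus markers were higher and 3 lower, from Ttr (8.45, 9.33 and 10.05) to Kl (6.17, 6.84 and 6.05). Among 8 meningeal fibroblast markers, 4 were higher with TG and 4 lower. Of the 6 microglia markers 3 were higher in SAMP8 and 3 lower, with Aif1 (5.71, 7.22 and 6.78) and P2ry12 (11.17, 12.03 and 11.60) the highest differences. Of the 6 pericyte and smooth muscle markers 4 were higher and 2 lower, Rgs5 (8.94, 10.23 and 10.06) standing next to Acta2 and Tagln (4.74, 3.91 and 4.62) at the other end. By list mean, the neuron, hippocampal subfield, astrocyte, microglia, endothelial and pericyte and smooth muscle markers were highest in SAMP8. Some protocadherins were too, Pcdha, Pcdhb14, Pcdhb15, Pcdh9, Pcdh10 and Pcdh15 among them. Others were not, such as Pcdhb2, Pcdhg, Pcdh19 and Pcdh20, highest in SAMR1, and Pcdh11x, highest with TG. The share of all probe sets that were highest in SAMP8 was not computed. The neuron means of SAMR1 and SAMP8 were 14.59 and 14.60, with 4 of 7 markers higher in SAMP8, 2 lower and 1 equal. These markers ran from Map2 (12.28, 11.62 and 11.67), the 1 lower past the limit (6.08% of all probe sets), to Gad1 (11.73, 12.17 and 11.82). Syt1, the equal one, averaged 19.70 in each group, near the highest average on the array (19.93). Of the 6 subfield markers, 4 were higher in SAMP8 than in SAMR1, and 4 were higher with TG than without. The part of these cell types in the protocadherin differences was not tested.

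Genes that act on or with protocadherins were described from 6 lists. Chromatin regulators of the clustered genes are the looping factors CTCF and cohesin, which bring promoters to distant enhancers, and the DNA and histone methylation proteins that keep unused promoters silent. Of the 19, 14 were higher in SAMP8 than in SAMR1 (median 0.16) and 16 were lower with TG (median -0.15). Past the limit were 1 between the strains, the cohesin subunit Smc3 (9.41, 10.06 and 9.85), and 0 with TG. Of all probe sets, 5.00% were higher and 6.08% lower past it between the strains, and 4.48% higher and 3.74% lower with TG. List means of the 19 (9.08, 9.19 and 9.03) lie above 8.73, where the highest quartile of mean signal begins. The part of signal in the medians of this list was not tested. Ctcf itself averaged 10.75 in SAMR1, 10.92 in SAMP8 and 10.71 with TG, and Smchd1, a repressor of clustered protocadherin promoters, 7.08, 7.15 and 7.0. Neither differed by more than 0.21 in these comparisons.

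The 16 cytoplasmic partners, most of them members of the WAVE actin-regulating complex or kinases bound by protocadherin tails, had medians of 0.19 between the strains and -0.18 with TG. Cyfip1, a WAVE complex subunit, averaged 13.47 in SAMR1, 13.45 in SAMP8 and 12.52 with TG, and was lower with TG past the limit, as was Abi2 of the same complex (13.57, 13.83 and 13.14). The receptor kinase gene Ret (5.08, 5.79 and 5.41) was higher in SAMP8 past the limit. That makes 2 of 16 lower with TG (3.74% of all probe sets) and 1 of 16 higher in SAMP8 (5.00%).

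A list of 19 genes held classical cadherins, the other main adhesion branch of the family, together with the atypical cadherin Cdh13. Of the 19, 4 were higher in SAMP8 past the limit (5.00% of all probe sets) and 2 lower (6.08%). Cdh4, or R-cadherin, had the highest difference of all 6 lists, with 4.39 in SAMR1, 5.71 in SAMP8 and 5.12 with TG. Cdh6 (6.6, 7.71 and 7.92), Cdh19 (6.49, 7.53 and 7.17) and Cdh13 (7.35, 8.37 and 7.63) were the others higher, and Cdh24 (6.42, 5.58 and 6.16) and Cdh3 (4.71, 3.92 and 4.54) the lower ones. With TG, Cdh10 (9.07, 9.26 and 8.32), Cdh13 and Cdh4 were lower past the limit (3.74% of all probe sets) and Cdh3 was higher (4.48%). Cdh4, at -0.59, lay past the limit at a distance within the rounding of the averages (0.01), and Cdh3 is among the dimmest 25% of probe sets. The medians of this list were 0.06 and -0.09, each nearer to 0 than those of the non-clustered protocadherins.

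A list of 10 genes held the Fat, Dachsous and Celsr cadherins, the giant members that set cell polarity, and Fjx1, which is no cadherin but a relative of the Golgi kinase that acts on Fat and Dachsous, and 9 were found on the array. Between the strains 0 passed the limit (5.00% of all probe sets were higher past it and 6.08% lower) and the median was -0.05. With TG the 8 cadherins were lower and Fjx1 (10.12, 9.95 and 10.16) was higher, at a median of -0.23 over the 9. Fat4 (7.80, 7.75 and 7.12) was the 1 of 9 lower with TG past the limit, beside 3.74% of all probe sets. The 7 catenins, which tie classical cadherins but not protocadherins to actin, had medians of 0.20 and -0.13. Ctnnb1, or beta-catenin, averaged 13.46 in SAMR1, 14.25 in SAMP8 and 13.57 with TG, past the limit in both comparisons. Ctnna1 (8.16, 8.78 and 8.58) was higher in SAMP8 past the limit and Ctnnd1 (7.37, 7.81 and 7.21) lower with TG. Of the 7, 2 were thus higher in SAMP8 (5.00% of all probe sets) and 2 lower with TG (3.74%). The 9 calsyntenins and cadherin-related genes had medians of -0.07 and -0.04, with Cdh23, the partner of Pcdh15 in the tip link, higher with TG past the limit (4.48, 3.92 and 5.00) and Cdhr1 lower. Past it with TG was thus 1 of 9 in each direction, beside 4.48% of all probe sets higher and 3.74% lower. Cdh23 and Pcdh15 thus stood on opposite sides of 0 in both comparisons.

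**Figure D4:**
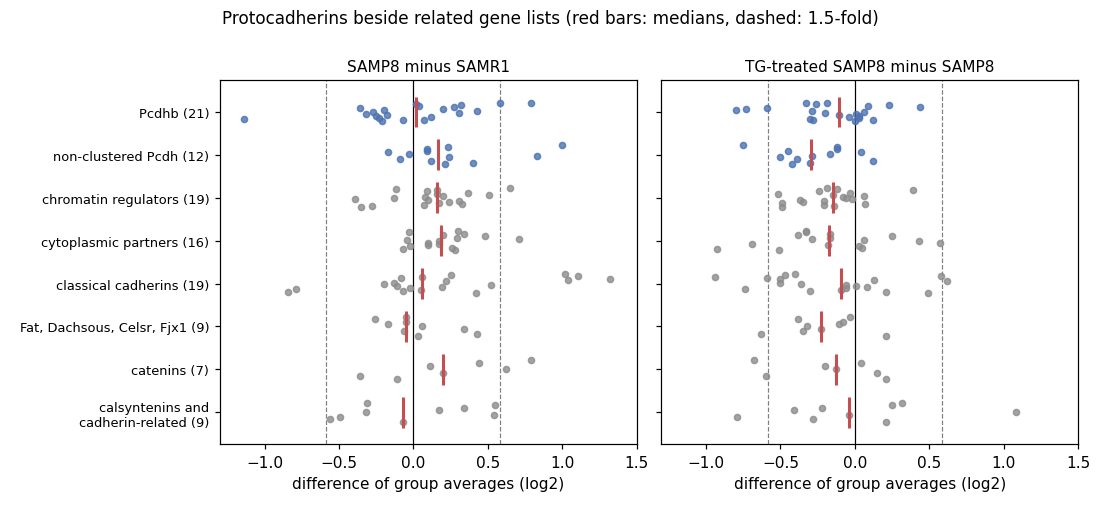
Differences of group averages (log2, x axis) for Pcdhb and non-clustered protocadherin probe sets (blue) and 6 related gene lists (grey), with SAMP8 minus SAMR1 on the left and TG-treated SAMP8 minus SAMP8 on the right; numbers in brackets are probe sets. Red bars are medians and dashed lines 1.5-fold; with TG the median of the non-clustered protocadherins (-0.30) is the lowest of the 8 sets shown.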

How the data were processed

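Hippocampal RNA of 9 mice, 3 per group, was hybridized to Clariom S Mouse arrays. The authors normalized the intensities by SST-RMA in the Transcriptome Analysis Console and deposited 2 tables of group averages as log2 signal, to 2 decimals, annotated on mm10. Each table also holds the authors' own fold changes, p-values and adjusted p-values, which were not used. The SAMP8 averages are identical in both tables.

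Probe sets with a symbol beginning with Pcdh were taken, and averages were subtracted over the whole table. Without values per array no test, SD or leave-one-out could be made, so counts past 1.5-fold and medians are given beside those of all 22206 probe sets. The number of arrays limits precision. Positions and spans come from RefSeq on GRCm38, matched by symbol. Code was tested on simulated data.

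Members and lists (6 related, 11 marker lists) were chosen with earlier results of these data known. Named are all non-clustered genes, the subfamily probe sets, the extreme Pcdhb genes and the extremes over all related lists. Other genes were named after their values were seen. Tools were matplotlib 3.10.9, scipy 1.17.1, pandas 2.3.3 and numpy 2.4.6 under Python 3.11.15.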

Additional observations from a re-analysis of the deposited data

How the results depend on the processing

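No paired analysis was possible because the deposited tables hold group averages and no value per array, and for the same reason no replicate could be left out. With a 1.2-fold limit, 10 protocadherin probe sets were higher and 4 lower in SAMP8 (clustered 7 and 4, Pcdhb 6 and 4). With TG, 15 were lower and 1 higher (clustered 8 and 1, Pcdhb 7 and 1, non-clustered 7 lower). Of all probe sets, 20.4% were higher and 20.4% lower past 1.2-fold between the strains, and 19.6% higher and 18.5% lower with TG. With a 2-fold limit, 1 was higher in SAMP8 (non-clustered 1, clustered 0, Pcdhb 0) and 0 were lower with TG in any class. Of all probe sets, 0.838% were higher past 2-fold between the strains and 0.342% lower with TG. The 1 higher, Pcdh9, lay on that limit, so its count rests on the rounding of the averages. Counted by gene symbol, so that the alpha and gamma probe sets weigh as 14 and 22 genes, 17 were higher in SAMP8 and 18 lower with TG (clustered 15 and 17), the clustered median between the strains was -0.18, and 84.3% of the members (clustered 84.5%) were lower with TG. That median is the value of the 1 Pcdhg probe set. Its 22 genes count as lower with TG at a difference of -0.01, no larger than the rounding error (0.01). In both counts past the limit, 14 of the genes are the 1 Pcdha probe set. No share over all gene symbols was computed beside the counts by symbol. Centring each group on its median moved Pcdhb14 past the limit between the strains, which made 2 Pcdhb probe sets higher. Without probe sets that name several genes, 1 clustered probe set was higher in SAMP8. A filter on the dimmest 25%, which removed Pcdhb1 alone from the members, moved 0 of 32 values (counts by over 1.5 times, medians by over 0.1, shares beyond their exact 95% binomial interval). With Pcdhb1 alone removed, these values had little room to move. The interval treats members as independent draws, which they are not, and served only as a bound for a move. Averages without a spread limit every value.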

Other observations

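A pair of cadherin-related genes carried a protocadherin name in the past and lies outside the symbol rule. Cdhr1, formerly Pcdh21, a gene of photoreceptors and the olfactory bulb, averaged 4.16 in SAMR1, 4.70 in SAMP8 and 3.91 with TG, with a TG difference of -0.79. Cdhr2, formerly Pcdh24, which is known from the gut brush border, averaged 4.69, 4.38 and 4.70 in the same order. Adding them would bring the probe sets lower past 1.5-fold with TG to 6 of 37, beside 3.74% of all probe sets. Cdhr1 is among the dimmest 25% of probe sets, those up to a mean signal of 4.40, so its difference rests on low signal.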
